A study of Mus musculus with 2 samples.

Results

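Lymphatic endothelial nuclei made up 185 of 23494 kept barcodes in 2 single-nucleus RNA libraries of mouse heart. A barcode was kept when at least 200 genes were detected in it and no more than 30% of its UMIs (unique molecular identifiers, each standing for 1 captured RNA molecule) were mitochondrial, and 23494 of the 26334 deposited barcodes passed. A kept barcode was a lymphatic nucleus when it held UMIs of at least 3 of the 6 genes Mmrn1, Reln, Prox1, Ccl21a, Flt4 and Lyve1, of which at least 1 was Mmrn1, Reln or Ccl21a. It could hold at most 1 UMI summed over 7 genes of fibroblasts, immune cells, mesothelium and mural cells (Pdgfra, Col1a1, Csf1r, Ptprc, Cd163, Msln and Pdgfrb). The nuclei were chosen by the measured UMIs of these genes, so those values are given below as a description and support nothing.

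The nuclei came from cardiac tissue of male C57Bl6/J mice aged 3.5 months that had received tamoxifen. Both groups carried Tcf21-MerCreMer, a Cre recombinase that tamoxifen activates and that is expressed from the fibroblast gene Tcf21. The CF-KI library carried Nlrp3-A350V/A350V, an allele of the inflammasome sensor that the submitters describe as constitutively active in fibroblasts, and the control library carried Nlrp3-WT/WT. The submitters state that the mutant allele is silent in cells that do not express Cre. Each group is 1 library, the number of animals behind each library is not given in the sources used here, and nuclei of 1 library are not replicates. No test between the groups is therefore possible, and every interval below is at 95% and covers counting error only.

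Lymphatic endothelium lines the vessels that return interstitial fluid, fats and leukocytes from the tissue to the blood. Its identity rests on the transcription factor Prox1 and on VEGF-C, a growth factor that binds the receptor tyrosine kinase Flt4 (VEGFR3) and its co-receptor Nrp2. Ccl21a encodes a chemokine that draws dendritic cells and T cells into lymphatic capillaries, Lyve1 a hyaluronan receptor, Mmrn1 a secreted adhesive glycoprotein and Reln the secreted glycoprotein reelin.

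The promoters of 4 genes on which the identity of these nuclei turns are shown, 3 of them rule markers and Adgrg3, an adhesion G protein-coupled receptor that no rule used. Each covers 250 bases before and 50 after the transcription start in RefSeq on GRCm38.p6, 5′ to 3′ on the gene's own strand. They lie at chr6:60944067-60944366 on the plus strand for Mmrn1, chr5:22344656-22344955 on the minus strand for Reln, chr4:42773942-42774241 on the minus strand for Ccl21a and chr8:95017442-95017741 on the plus strand for Adgrg3. Capitals mark matches, on either strand, to 3 motifs of 6 bases: AGGTCA, the half-site of nuclear receptors such as Nr2f2, AACAAT of SOX factors and TGCTGA, the half-site of MAF factors.
Mmrn1: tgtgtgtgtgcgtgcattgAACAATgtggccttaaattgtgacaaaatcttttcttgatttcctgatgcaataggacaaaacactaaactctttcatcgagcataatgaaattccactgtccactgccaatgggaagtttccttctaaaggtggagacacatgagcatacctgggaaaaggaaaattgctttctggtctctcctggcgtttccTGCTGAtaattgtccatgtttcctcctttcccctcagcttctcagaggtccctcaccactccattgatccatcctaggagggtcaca
Reln: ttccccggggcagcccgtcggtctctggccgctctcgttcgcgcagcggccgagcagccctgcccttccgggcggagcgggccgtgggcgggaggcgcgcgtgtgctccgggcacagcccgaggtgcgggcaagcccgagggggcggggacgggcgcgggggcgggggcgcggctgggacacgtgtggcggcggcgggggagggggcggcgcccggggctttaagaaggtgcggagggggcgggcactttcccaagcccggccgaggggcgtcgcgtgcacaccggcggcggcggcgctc
Ccl21a: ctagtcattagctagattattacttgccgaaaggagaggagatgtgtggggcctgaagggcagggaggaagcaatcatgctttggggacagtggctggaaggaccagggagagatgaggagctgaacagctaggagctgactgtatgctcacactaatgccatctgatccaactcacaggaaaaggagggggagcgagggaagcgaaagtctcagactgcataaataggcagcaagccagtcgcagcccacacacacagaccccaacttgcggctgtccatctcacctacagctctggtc
Adgrg3: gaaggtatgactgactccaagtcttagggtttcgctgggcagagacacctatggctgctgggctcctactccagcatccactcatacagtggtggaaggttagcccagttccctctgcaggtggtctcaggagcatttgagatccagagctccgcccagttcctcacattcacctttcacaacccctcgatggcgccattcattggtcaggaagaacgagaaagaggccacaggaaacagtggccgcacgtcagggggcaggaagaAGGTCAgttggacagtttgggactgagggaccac
Mmrn1 held AACAAT 231 bases before the start and TGCTGA 37 bases before it, Adgrg3 held AGGTCA 16 bases after the start, and none of the matches overlapped. These letters are not in the windows of Reln and Ccl21a. The Reln window stands apart in composition, with 80.7% G and C against 44.3% for Mmrn1, 53.7% for Ccl21a and 55.7% for Adgrg3. Among all 32851 promoters of this length in the table, 16.3% held AGGTCA, 10.7% AACAAT and 19.5% TGCTGA. A promoter was found for 248 of the 323 genes that were higher in lymphatic than in capillary nuclei (defined below), and of their 348 promoters 15.8%, 4.89% and 14.9% held the same motifs. Of the 497 genes lower in lymphatic nuclei, 376 had a promoter, and 15.2%, 4.65% and 16.0% of their 495 promoters held the motifs. For the 4804 genes with a promoter among all those compared, the shares were 12.6%, 5.63% and 13.9%. Matches of this kind are descriptions of sequence, not binding sites.

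The gate found 114 lymphatic nuclei among 12598 kept barcodes of the CF-KI library, or 0.905% (exact Clopper-Pearson interval 0.747 to 1.09), and 71 among 10896 of the control library, or 0.652% (0.509 to 0.821). The difference was 0.253 percentage points (0.0216 to 0.484). It did not keep its direction when the mitochondrial limit was lowered to 5%, where the CF-KI share was 0.378 points below the control share (a difference of -0.378). That limit removes the nuclei very unevenly: 7 of 114 CF-KI and 47 of 71 control lymphatic nuclei lie at or below it. Of the lymphatic, capillary and endocardial nuclei together, lymphatic nuclei made up 9.50% of 1200 in CF-KI and 7.75% of 916 in control, a difference of 1.75 points (-0.755 to 4.19). When every barcode was thinned to 500 non-mitochondrial UMIs, the same rule found 59 of 11678 (0.505%) and 46 of 10653 (0.432%). Rule markers were also found outside the lymphatic nuclei. Of all other kept barcodes, 5.69% in CF-KI and 2.32% in control held Ccl21a, and 1.56% and 0.758% held Mmrn1. Prox1 (5.44% and 5.01%), Flt4 (1.84% and 1.35%) and Reln (0.441% and 0.360%) differed less. Lyve1 alone went the other way, at 3.87% and 5.25%. The part of such UMIs in the share difference was not tested.

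The gate's edges were crowded. Just inside it, 52 CF-KI and 24 control nuclei held exactly 3 of the 6 markers, with median depths of 976.5 and 922 UMIs. Just outside it, 119 and 45 barcodes held 2 markers with a defining one, at medians of 1078 and 1229 UMIs. A single exclusion UMI was present in 24 and 12 of the lymphatic nuclei, while 3 and 5 barcodes were left out for holding 2 such UMIs and 13 and 11 for holding more. In CF-KI 5 barcodes were left out for passing the mitochondrial limit alone, and none in control. All 6 markers were found together in 6 nuclei of each library.

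The libraries differ in quality. Lymphatic nuclei held 164786 UMIs in CF-KI and 89895 in control, of which 144802 and 84742 were not mitochondrial and served as the denominators of all levels below, given as CPM (the gene's UMIs over all non-mitochondrial UMIs, times 1e6). Median depth was 1024.5 UMIs per nucleus in CF-KI and 995 in control. The median mitochondrial share was 13.4% against 4.25%, and capillary nuclei showed the same split with 10.0% against 3.81%. Cardiomyocyte markers, a list of 12 genes led by Ttn and Myh6, summed to 25545 CPM in CF-KI lymphatic nuclei and 10691 CPM in control ones. They took a median of 2.69% of a lymphatic nucleus's non-mitochondrial UMIs in CF-KI and 0.786% in control, and at most 15.4% and 13.2%. The level of each cardiomyocyte marker in lymphatic nuclei was a median 64.6% of its level in the whole CF-KI library and 51.9% in control. The libraries shared 46 barcode sequences, none of them in lymphatic nuclei.

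**Figure D1:**
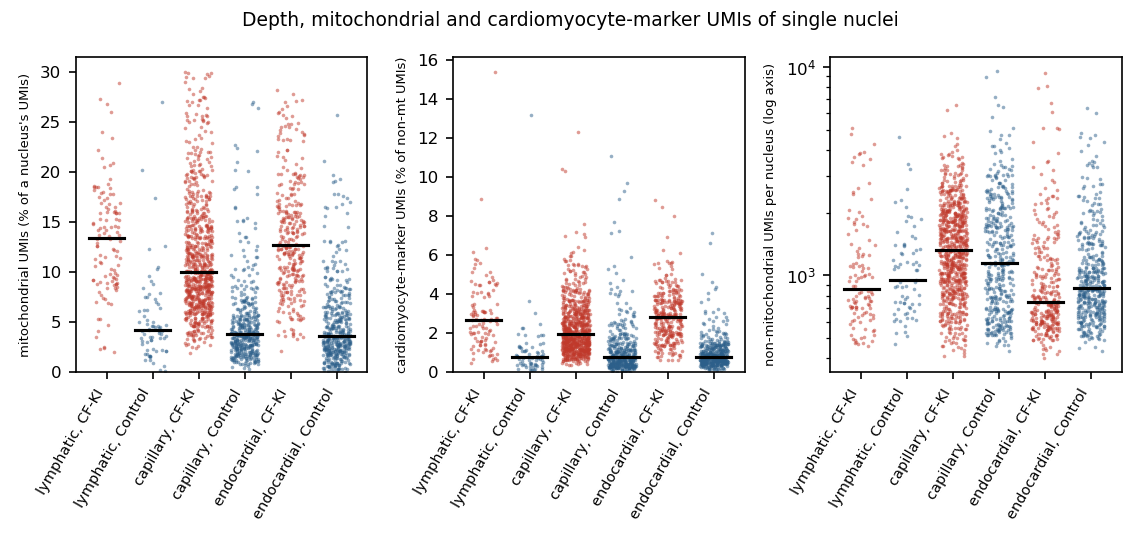
Each point is 1 nucleus and each bar a median, for lymphatic, capillary and endocardial nuclei of both libraries: mitochondrial share of UMIs (left), share of non-mitochondrial UMIs from 12 cardiomyocyte markers (middle) and depth on a log axis (right). Lymphatic nuclei sit at medians of 13.4% and 4.25% mitochondrial UMIs and of 2.69% and 0.786% cardiomyocyte-marker UMIs in CF-KI and control.

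Nlrp3, the gene altered in these mice, had 1 UMI in CF-KI lymphatic nuclei and 0 in control ones. Tcf21, whose promoter drives Cre, had 1 UMI in each library. Both lie at or under the floor of 3 UMIs, which is 20.7 CPM for the CF-KI nuclei and 35.4 CPM for the control ones, so no ratio is given. The UMIs of Nlrp3 do not distinguish the alleles and check no label at this depth.

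Among the secreted rule markers, Ccl21a had 601 UMIs and 4150.5 CPM in CF-KI against 541 UMIs and 6384 CPM in control. The log2 ratio of CF-KI over control was -0.62 (-0.79 to -0.45). Its UMIs were concentrated in few nuclei: the median nucleus held 3 in each library, the highest held 60 and 62, and the 10% of nuclei with most held 44.4% and 46.6%. The mouse genome carries near-identical copies of this gene, and the copies Ccl21b, Ccl21c, Gm13304 and Gm10591 were at 0 while Gm21541 had 1 UMI in each library, so how reads were divided among them is uncertain. Mmrn1 stood at 1243 CPM in CF-KI and 1876 CPM in control, a log2 ratio of -0.59 (-0.91 to -0.28). Reln stood at 456 CPM (66 UMIs) and 932 CPM (79 UMIs), a log2 ratio of -1.03 (-1.53 to -0.54), the lowest of the 6.

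The remaining rule markers lay closer together. Prox1, the master regulator of lymphatic fate, was at 794 CPM in CF-KI and 673 CPM in control, with a log2 ratio of 0.24 (-0.23 to 0.72). Outside these nuclei Prox1 was also higher in CF-KI, at 26.9 and 7.84 CPM in capillary and 78.5 and 36.7 CPM in endocardial nuclei. In all other kept barcodes it was at 49.6 and 40.5 CPM. Flt4 was at 704 and 897 CPM, with a log2 ratio of -0.35 (-0.79 to 0.10), and Lyve1 at 759.7 and 920.4 CPM, with -0.28 (-0.71 to 0.16). Their intervals include 0. The median over the 6 was -0.47, with 1 above 0 and 5 below. These genes chose the nuclei, so the median is a description and is not set against that of other genes. In the annotation of GRCm38, Prox1 lies on chromosome 1 at 190118035 to 190170714, Flt4 on chromosome 11 at 49609263 to 49652739 and Lyve1 on chromosome 7 at 110850607 to 110863239.

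Reln and Lyve1 were each found in only part of the nuclei. Lyve1 is known to mark lymphatic capillaries more than collecting vessels. Both were present in 27 of 114 nuclei (23.7%) from CF-KI and 32 of 71 (45.1%) from control. Reln without Lyve1 was seen in 22 and 14 nuclei, Lyve1 without Reln in 34 and 14, and neither in 31 and 11. Depth limits such shares: as sequenced, Reln was seen in 43.0% (CF-KI) and 64.8% (control) of lymphatic nuclei, and in 23.6% and 40.0% after thinning to 500 UMIs, which left out 8 CF-KI nuclei and 1 control nucleus. Lyve1 went from 53.5% and 64.8% to 33.0% and 40.0% by the same step. In capillary nuclei, which should lack Lyve1, the thinned shares were 0.399% and 0.735%. As sequenced, at median depths of 1494.5 and 1207 UMIs, the capillary shares were 1.82% and 1.44%. In endocardial nuclei, whose rule did not use Lyve1, the thinned shares were higher, at 3.68% and 5.70%. Capillary and endocardial nuclei were defined to hold no UMI of Reln, so no background for Reln comes from them.

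The label was set beside genes outside the rule. When all kept barcodes were clustered without the rule genes, 160 of the 185 lymphatic nuclei (86.5%) fell in 1 of 21 clusters, 94 of 114 (82.5%) from CF-KI and 66 of 71 (93.0%) from control. That cluster held 273 barcodes, of which 58.6% were lymphatic nuclei by the gate. Scrublet marked 8 of 114 (7.02%) and 4 of 71 (5.63%) lymphatic nuclei as likely doublets, and they were kept. Of 25 further lymphatic markers, Ccl21b was at 0 in both libraries and Cldn11, a gene of lymphatic valves, had 0 and 1 UMI. Podoplanin (Pdpn), a glycoprotein widely used to stain lymphatics, was scarce, with 10 UMIs (69.1 CPM) in CF-KI and 5 UMIs (59.0 CPM) in control. Stab2, a scavenger receptor, had 1 and 11 UMIs.

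Lymphatic nuclei were next compared, within each library, with capillary nuclei, the commonest blood endothelium of the heart. Capillary nuclei were the 770 CF-KI and 417 control barcodes that held at least 3 of Gpihbp1, Car4, Rgcc, Kdr, Flt1 and Aqp1 with 1 of the first pair, passed the same exclusions and held no UMI of Mmrn1, Reln, Ccl21a or the endocardial gene Npr3. A gene was compared when lymphatic and capillary nuclei of each library together held at least 20 of its UMIs, and called when the ratio was at least 2-fold in the same direction in both libraries, with counts under 3 set to 3. All genes of the rules were left out. Of 5992 genes compared, 323 (5.39%) were higher in lymphatic nuclei and 497 (8.29%) were lower. The number of higher genes depends on the minimum, as it was 104 when 50 UMIs were required and 593 at 10, and it was 824 after an estimate of free RNA was subtracted.

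Of the 25 further lymphatic markers, 15 had enough UMIs for this comparison, and 11 were higher than in capillary nuclei in both libraries, beside 5.39% of all genes. The list was chosen with earlier results of these data known, so this count is a description and no independent check of the label. The transcription factor Maf stood at 1492 CPM in CF-KI lymphatic nuclei and 1251 CPM in control ones, against 31.3 and 31.4 CPM in capillary nuclei. The log2 ratios of lymphatic over capillary nuclei were 5.58 (5.06 to 6.13) in CF-KI and 5.32 (4.62 to 6.09) in control. Maf UMIs were found in 66.7% and 67.6% of lymphatic nuclei, or 48.1% and 48.6% after thinning, against 1.99% and 0.980% of thinned capillary nuclei. Maf was thus at similar levels in the lymphatic nuclei of both libraries and spread over most of them. Nr2f2 (COUP-TFII), a nuclear receptor of veins and lymphatics, was at 649 and 944 CPM, with log2 ratios of 3.55 (3.07 to 4.03) and 3.77 (3.23 to 4.34) over capillary nuclei. Nrp2, the VEGF-C co-receptor, was at 1181 and 1392 CPM, with 1.67 (1.40 to 1.93) and 1.91 (1.58 to 2.24). The remaining markers called higher were Adgrg3, Sema3d, Sned1, Fgl2, Thy1, Itga9, Nts and Klhl4. Against the list's name, Sox18 and Rasgrp3 were lower than in capillary nuclei, with log2 ratios of -1.35 and -1.45 for Sox18, a SOX factor that acts upstream of Prox1 in the embryo and is also expressed by blood vessels, and -1.02 and -1.48 for Rasgrp3. Gata2 and Nfatc1, both linked to lymphatic valves, were compared and not called.

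**Figure D2:**
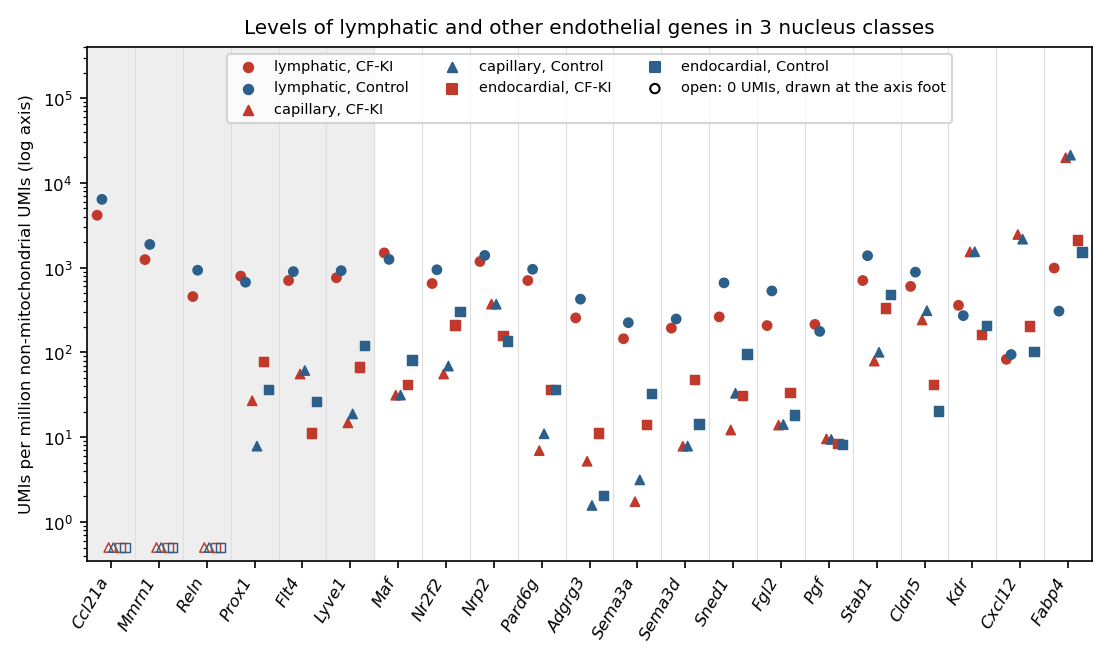
Levels of 21 genes in lymphatic (circles), capillary (triangles) and endocardial (squares) nuclei of the CF-KI (red) and control (blue) libraries, in CPM on a log axis. The shaded genes chose the nuclei, and the capillary and endocardial zeros of Ccl21a, Mmrn1 and Reln follow from the rules; outside them, Maf sits near 1492 and 1251 CPM in lymphatic nuclei and near 31 CPM in capillary nuclei.

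The 15 genes highest over capillary nuclei were led by Pard6g, a subunit of the PAR polarity complex, which no lymphatic list held. Pard6g was at 704 CPM (102 UMIs) in CF-KI lymphatic nuclei and 956 CPM (81 UMIs) in control ones, against 8 and 7 UMIs in the far larger pools of capillary nuclei. Its log2 ratios were 6.66 (5.63 to 7.91) and 6.44 (5.34 to 7.80), and 63 of 114 and 40 of 71 lymphatic nuclei held at least 1 UMI. The polarity gene was thus found in more than 50% of the nuclei of each library. Adgrg3 had 37 and 36 UMIs against 6 and 1 in capillary nuclei, with log2 ratios of 5.62 (4.36 to 7.15) and 6.50 (5.51 to 13.42). The second interval is wide because it rests on 1 capillary UMI. Slc45a3, a sugar transporter of the SLC45 family, reached 5.69 (4.17 to 7.67) and 4.79 (3.44 to 6.38).

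Sema3a, Sema3d and Pgf were also among the 15. Sema3a, a semaphorin known to be needed for lymphatic valves, was at 145 and 224 CPM in lymphatic nuclei against 2 UMIs in the capillary nuclei of each library, with log2 ratios of 5.80 (4.35 to 9.52) and 5.57 (4.11 to 9.31). Its relative Sema3d was at 193 and 248 CPM, with 4.63 (3.51 to 5.90) and 4.98 (3.54 to 6.75). Pgf, placental growth factor, a ligand of the blood-vessel receptor Flt1, was at 214 and 177 CPM, with 4.49 (3.46 to 5.63) and 4.23 (2.79 to 5.89). All of them encode ligands released from the cell. Sned1, Adamtsl1, Abi3bp, Col18a1, the fibrinogen-like Fgl2 and Lbp, the lipopolysaccharide-binding protein, had log2 ratios between 3.80 and 5.79 in both libraries. The set was completed by Gm17167, Tmod2 and Maf.

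Endocardial nuclei, 316 in CF-KI and 428 in control by a matching rule built on Npr3, served as a second comparison. Of 4316 genes compared, 190 (4.4%) were higher in lymphatic nuclei and 158 (3.66%) lower in both libraries. Of the 15 genes highest over capillary nuclei, 13 were also at least 2-fold higher than in endocardial nuclei, Slc45a3 being short of it in CF-KI (0.91 and 1.24 on the log2 scale) and Pgf having too few UMIs. Of the 292 genes higher than in capillary nuclei that could be tested against endocardial nuclei, 84 were higher than in both. The further lymphatic markers gave 9 of 14.

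The 10 genes lowest in lymphatic against capillary nuclei included Fabp4, Cxcl12 and Kitl. Fabp4, the fatty acid-binding protein of heart capillaries, was at 988 CPM (143 UMIs) in CF-KI lymphatic nuclei and 307 CPM (26 UMIs) in control ones, against 19787 and 21190 CPM in capillary nuclei. Its log2 ratios of lymphatic over capillary nuclei were -4.32 (-4.57 to -4.09) and -6.11 (-6.72 to -5.56). Cxcl12, the chemokine of arterial and capillary endothelium, was at 82.9 and 94.4 CPM against 2458 and 2164 CPM, with -4.89 (-5.84 to -4.08) and -4.52 (-5.73 to -3.54). Kitl, the ligand of Kit, had 5 and 1 UMIs against 977 and 517, and Ly6c1 10 and 11 against 1707 and 1551. Rgs5, a pericyte gene, had 23 and 3 UMIs against 3393 and 1506. Tcim, Tcf15, Lims2, Rflnb and Cd300lg completed the set, with no more than 5 UMIs each in either lymphatic pool. All 6 members of the capillary list that the rules had not used were at least 2-fold lower in lymphatic nuclei, beside 8.29% of all genes.

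**Figure D3:**
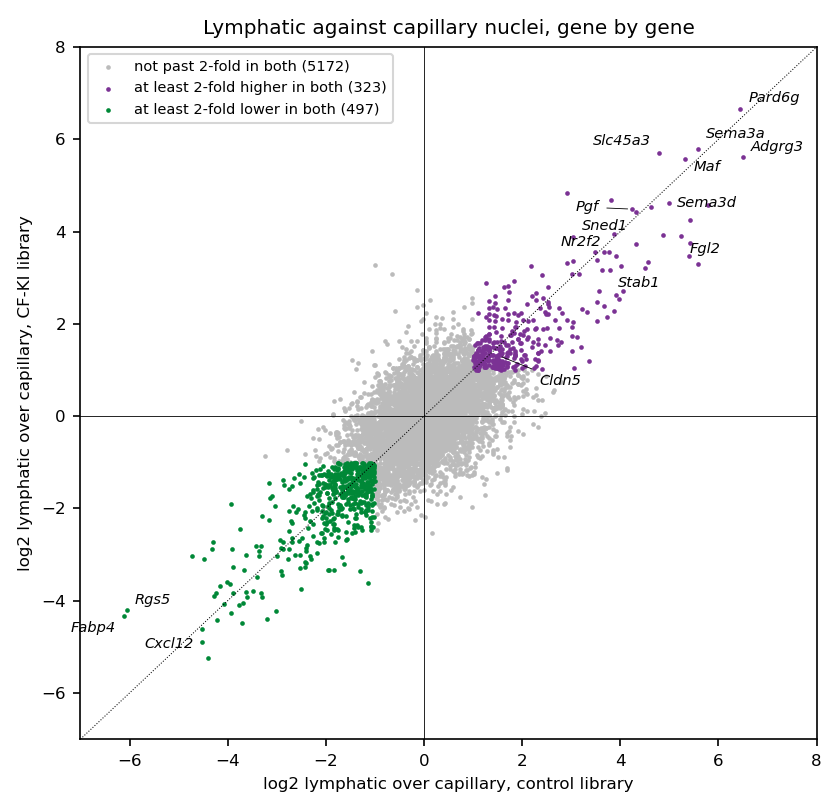
Each point is 1 of 5992 genes, placed by its log2 ratio of lymphatic over capillary nuclei in the control library (horizontal) and the CF-KI library (vertical); the dotted line marks equal ratios. The 323 purple genes were at least 2-fold higher and the 497 green genes at least 2-fold lower in both libraries, with Pard6g at 6.44 and 6.66 at one end and Fabp4 at -6.11 and -4.32 at the other.

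Gene groups with roles in endothelium were set beside these background shares. Of 15 pan-endothelial genes compared, 1 was higher and 7 were lower in lymphatic than in capillary nuclei. The higher one was Cldn5, a tight-junction claudin, at 601 and 885 CPM against 241 and 310 CPM, with log2 ratios of 1.32 (0.95 to 1.67) and 1.51 (1.11 to 1.90). The lowest was Esam, an adhesion molecule of endothelial junctions, at -2.82 and -3.42. Of 24 endothelial transcription factors compared, 2 were higher, Maf and Nr2f2, and 8 were lower, led by Tcf15, Epas1 (HIF-2alpha) at -3.83 and -3.33, and Meox2. Of 22 junction and adhesion genes, 4 were higher and 7 lower: Itga9, the integrin subunit of lymphatic valves, reached 3.33 (2.40 to 4.28) and 2.91 (1.85 to 3.97), Nectin2 4.84 and 2.91, and Itgav 1.44 and 1.59, while Jam2, with 3 and 2 UMIs in lymphatic nuclei, stood at -4.49 (-6.77 to -2.94) and -3.70 (-7.34 to -2.42).

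Among 18 genes of VEGF-C and angiopoietin signalling compared, 4 were higher and 1 lower. The higher ones were Itga9, Nrp2, the Tie2 ligand Angpt2 at 96.7 and 212 CPM (log2 ratios 2.63, 1.51 to 3.72, and 3.91, 2.68 to 5.25) and the phosphatase Ptpn14 (1.93 and 1.88). Ptprb, the phosphatase that restrains Tie2, was lower at -2.03 and -2.19. The ligand Vegfc itself had 0 and 1 UMI in lymphatic nuclei. Of 13 chemokine and leukocyte-trafficking genes compared, 2 were higher and 6 lower. Stab1, a scavenger and adhesion receptor, was higher at 704 and 1381 CPM, with 3.16 (2.73 to 3.58) and 3.78 (3.33 to 4.25), as was Sema3a. Ackr2 is the decoy receptor that clears inflammatory chemokines from lymphatic surfaces. It had too few UMIs in lymphatic and capillary nuclei together to be compared, at 96.7 and 106 CPM in lymphatic against 2.60 and 1.57 CPM in capillary nuclei.

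Of 18 matrix and basement membrane genes compared, 6 were higher and 3 lower. Timp2, an inhibitor of metalloproteinases, reached 1.91 (1.49 to 2.33) and 2.27 (1.63 to 2.90), and Sulf1 and Emilin1, a component of lymphatic anchoring, 1.77 and 1.33 and 1.64 and 1.17. Sparc was among the lower at -2.71 and -2.55. Of 15 valve and flow-sensing genes, 3 were higher (Itga9, Pkd1 and Fn1) and 3 lower, with Klf2, a shear-induced transcription factor, lowest at -1.15 and -1.22. Foxc2, the transcription factor of valve formation, had 3 UMIs in each library, at the floor. Of 16 scavenging and lipid-uptake genes, 2 were higher (Stab1 and Abca1) and 7 lower, and of 20 inflammatory-response genes 0 were higher and 8 lower, including the class I antigen-presentation gene B2m at -2.29 and -1.98. Downstream of reelin, 1 of 8 genes was higher (the adaptor Dab2, at 1.14 and 1.89) and 1 lower (Rapgef1, at -1.44 and -1.16), and the neuronal adaptor Dab1 had 0 UMIs in both. Against endocardial nuclei, 2 of 14 VEGF-C and angiopoietin, 1 of 13 valve, 4 of 15 matrix and 1 of 16 scavenging genes were higher. Junction genes gave 3 of 18, trafficking genes 2 of 10 and transcription factors 4 of 20, beside 4.4% of all genes. Pan-endothelial genes gave 1 of 12, reelin-pathway genes 1 of 7 and inflammatory-response genes 0 of 12.

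The last comparison set CF-KI against control lymphatic nuclei and asks whether a fibroblast-restricted Nlrp3 mutation is accompanied by differences in lymphatic endothelium. Of 2295 genes with at least 20 UMIs over both libraries, 224 (9.76%) were at least 2-fold higher in CF-KI and 178 (7.76%) at least 2-fold lower, with a median log2 ratio of -0.07. With 1 library a group these counts have no replicate check. The counts also shrink with a higher minimum, to 68 higher and 35 lower among the 660 genes with at least 50 UMIs. After the estimate of free RNA was subtracted they were 324 higher and 382 lower, so the larger count was then the lower one. A median of -0.03 was found for the same genes in capillary nuclei.

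Lymphatic markers lay mostly on the lower side, and so did pan-endothelial and matrix genes. Of 13 pan-endothelial genes with at least 20 UMIs, 3 were above 0 and 10 below, at a median log2 ratio of -0.44. The 13 matrix and basement membrane genes gave the same counts and a median of -0.44. The capillary list, with 7 such genes, had a median of -0.09. Of the 25 further markers 14 had at least 20 UMIs, 0 were at least 2-fold higher in CF-KI, beside 9.76% of all genes, and 4 at least 2-fold lower, beside 7.76%. Their median log2 ratio was -0.45, with 2 above 0 and 12 below, beside -0.07 over all genes and -0.20 for the same genes in capillary nuclei. The list's summed level was 5304 CPM in CF-KI and 7293 CPM in control. After the estimate of free RNA was subtracted, the median was -0.05 beside -0.13 over all genes, so the markers no longer lay below the rest. That estimate is large and loosely fixed, at 64.6% of the non-mitochondrial UMIs in CF-KI and 51.9% in control. Single cardiomyocyte markers gave 55.3% to 79.6% in CF-KI and 20.9% to 103% in control. Under a mitochondrial limit of 5%, which left 7 CF-KI and 47 control nuclei and 6 of the markers, it was -1.49 beside -0.66 over all genes.

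The 4 markers past 2-fold were Fgl2, Sned1, Nts and Thy1. Fgl2, a fibrinogen-like protein, had 30 UMIs (207 CPM), spread over 21 nuclei, in CF-KI against 45 UMIs (531 CPM) over 26 nuclei in control, a log2 ratio of -1.36 (-2.08 to -0.66), while capillary nuclei gave -0.02. Sned1, a matrix protein, was at 262 and 661 CPM, a log2 ratio of -1.33 (-1.97 to -0.71), with -1.44 in capillary nuclei and -1.09 in all other barcodes. Nts, the peptide neurotensin, was at 104 and 224 CPM, with -1.11 (-2.19 to -0.06) in lymphatic and -2.01 in capillary nuclei. Sned1 and Nts were thus as low or lower in CF-KI capillary nuclei, and Fgl2 was not. Thy1, a glycoprotein also used to sort lymphatic endothelium, was at 96.7 and 260 CPM, with -1.43 (-2.50 to -0.39). Maf and Rasgrp3 were the 2 members above 0, Maf at 0.25 (-0.09 to 0.60).

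**Figure D4:**
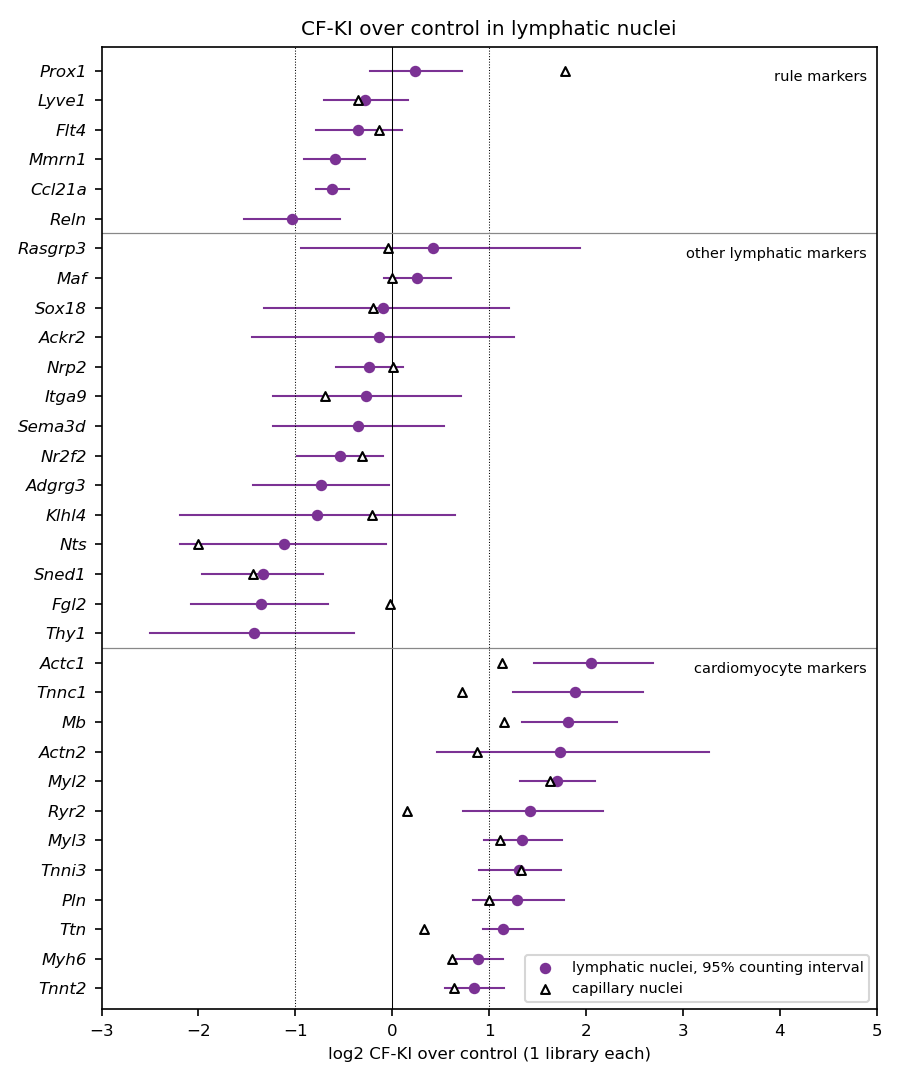
Log2 ratios of CF-KI over control in lymphatic nuclei (purple circles, with 95% counting intervals) for the 6 rule markers, the 14 further lymphatic markers with at least 20 UMIs and the 12 cardiomyocyte markers; black triangles give the ratio in capillary nuclei where they hold at least 20 UMIs, and dotted lines mark 2-fold. Further lymphatic markers have a median of -0.45 and cardiomyocyte markers one of 1.38.

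Of the genes higher in lymphatic than capillary nuclei, 87 had at least 50 UMIs in lymphatic nuclei, and the 8 lowest and 8 highest by CF-KI over control ratio are named. To be among the 87 a gene needed a 2-fold call, and at least 20 UMIs in lymphatic and capillary nuclei together, in the control library too, so genes high in CF-KI and scarce in control could not enter, and no count or median over them is read as a difference between the libraries. Besides Fgl2 and Sned1 the lowest were Cpne2 at -1.36 (-2.21 to -0.54), Tnxb, a matrix tenascin, at -1.21 (-1.97 to -0.47), and Cp, the copper-carrying ferroxidase ceruloplasmin, at -1.16 (-1.65 to -0.68). Cp rested on 65 UMIs (449 CPM) from 38 nuclei of CF-KI against 85 UMIs (1003 CPM) from 45 nuclei of control. Gm17167, Srek1 and Gm26917 each stood at -1.12. The highest were Ppip5k2, an inositol pyrophosphate kinase, at 0.84 (0.05 to 1.69), and the transcription factor Meis2 at 0.67 (-0.13 to 1.54), followed by Chd9, Cebpd, Lmna, Tspan18, Atp6v0b and Plce1 between 0.28 and 0.53.

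Cardiomyocyte RNA differed in the same comparison. All 12 cardiomyocyte markers were above 0 in CF-KI over control lymphatic nuclei, 10 of them past 2-fold, at a median of 1.38 against 0.94 in capillary nuclei. More than 5% of the non-mitochondrial UMIs came from these markers in 11 CF-KI nuclei and 1 control nucleus. Without these nuclei, 103 and 70 nuclei remained, and the log2 ratios were -1.09 for Reln, -0.61 for Ccl21a, -1.40 for Fgl2, -1.13 for Cp and 0.28 for Maf. Mhrt, a cardiac long non-coding RNA transcribed antisense to Myh7, so that its UMIs may be uncertain where the counting did not use strand, had 136 UMIs in 15 CF-KI lymphatic nuclei and 13 UMIs in 5 control ones, a log2 ratio of 2.61 (1.79 to 3.56), against 0.14 in capillary nuclei. Gm47644 was similar, with 57 UMIs in 17 nuclei and 5 UMIs in 2, at 2.74 (1.43 to 4.41). It lies within the span of the cardiomyocyte marker Pln, on the opposite strand, so the same caution on strand applies. Cryab, Cox6a2 and Cox7b, a chaperone and cytochrome oxidase subunits abundant in heart muscle, stood at 2.21, 2.14 and 2.07, and were also higher in CF-KI capillary nuclei at 1.27, 1.33 and 1.14. The median of the further lymphatic markers was -0.30 without the cardiomyocyte-rich nuclei, and the part of cardiomyocyte RNA in the other differences was not tested. Airway genes, 5 of which formed a list, summed to 0 CPM in CF-KI lymphatic nuclei and 661 CPM in control ones, and their part was not tested either.

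Haemoglobin genes held the highest ratios of all, and 1 barcode supplied most of them. Hba-a2, Hba-a1, Hbb-bs and Hbb-bt had log2 ratios of 6.07, 5.87, 5.10 and 3.78. A single CF-KI barcode carried 3241 of the 3458 haemoglobin UMIs, which were 81.1% of its 3995 UMIs and 2.24% of all non-mitochondrial UMIs of CF-KI lymphatic nuclei. Without it the ratios were 1.41, 1.37, 1.57 and 0.59. The remaining 113 nuclei held 217 haemoglobin UMIs, at most 21 in a nucleus, and the 71 control nuclei held 50.

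AA467197 was among the 10 genes with the highest CF-KI over control ratios among those with at least 50 UMIs. It is the mouse counterpart of C15orf48, which encodes a small mitochondrial protein related to a cytochrome oxidase subunit, and it lies on chromosome 2 at 122636986 to 122641191. It had 50 UMIs (345 CPM) in 20 of 114 CF-KI lymphatic nuclei, at most 11 in a nucleus, against 6 UMIs (70.8 CPM) in 4 of the 71 from control. The log2 ratio was 2.29 (1.06 to 3.80), and it was 2.34 without the cardiomyocyte-rich nuclei. Capillary nuclei held 5 and 1 UMIs (4.34 and 1.57 CPM), endocardial nuclei 1 and 0, and all other barcodes stood at 3.57 and 1.04 CPM. The gene had too few UMIs in the control library to enter the comparison with capillary nuclei.

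The lowest genes in CF-KI lymphatic nuclei, with at least 50 UMIs, were Ankrd17 at -1.56 (-2.33 to -0.81), Serinc3 at -1.49 (-2.27 to -0.73) and Nppa at -1.47 (-2.10 to -0.86). Nppa encodes atrial natriuretic peptide, and 49 of its 60 control UMIs lay in 1 nucleus, so its ratio describes that nucleus. Ankrd17 had 25 and 43 UMIs and Serinc3 25 and 41, and their capillary ratios were -0.24 and -0.32. Snrk, Ushbp1, Mgll and Gpihbp1, the last the capillary anchor of lipoprotein lipase, lay between -1.37 and -1.29, and Cpne2, Fgl2 and Sned1 completed the 10.

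By role, the counts are read beside the background shares of 9.76% and 7.76%, and most groups rest on few genes. Of 15 genes of VEGF-C and angiopoietin signalling with enough UMIs, 1 was at least 2-fold higher and 4 lower, at a median of -0.19. Tek, the angiopoietin receptor Tie2, was the higher one, with 20 UMIs in CF-KI and 4 in control and a log2 ratio of 1.55 (-0.03 to 3.56). Its partner receptor Tie1 was lower, at 166 and 342 CPM and -1.05 (-1.89 to -0.21), as were its ligand Angpt2 at -1.14 (-2.25 to -0.05), Rasa1 at -1.30 and Plcg1, which relays VEGF receptor signals, at -1.54 (-2.83 to -0.33). Each of these values rests on 4 to 29 UMIs per library, and the intervals of Tek and Rasa1 include 0. Itgb1, the beta1 integrin subunit, was at 628 and 366 CPM, at 0.78 (0.18 to 1.42).

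None of 13 transcription factors passed 2-fold, at a median of -0.09, with Nr2f2 at -0.54 (-0.99 to -0.09). Of 10 valve and flow-sensing genes 0 were higher and 2 lower, at a median of -0.69 beside -0.51 for the same genes in capillary nuclei. Piezo2, a mechanosensitive channel, was the lowest of them, with 8 UMIs (55.2 CPM) and 18 UMIs (212 CPM), at -1.94 (-3.35 to -0.67). Of 16 junction genes 1 was higher (Magi1) and 2 lower (F11r and Itga1), and of 13 matrix genes 0 were higher and 2 lower (Mmrn2 at -1.26 and Col4a2 at -1.01).

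Of 17 scavenging and lipid-uptake genes, 3 were at least 2-fold higher and 1 lower, at a median of -0.19. Mrc1, the mannose receptor of lymphatic endothelium and macrophages, was at 242 CPM (35 UMIs) and 70.8 CPM (6 UMIs), at 1.77 (0.51 to 3.31). The macrophage gene C1qa, with 17 and 3 UMIs, stood at 1.73, and the macrophage list summed to 1036 and 909 CPM. Of its 5 genes with at least 20 UMIs, 3 were above 0 and 2 below, at a median of 0.38. C1qb at 1.73 and F13a1 at 0.96 had fewer UMIs. Adgre1 was at 0 in both libraries, as was Ptprc, which the gate itself limited as an exclusion gene. Whether the Mrc1 UMIs came from macrophages was not tested. Fabp4 was higher at 1.69 (1.08 to 2.35), against -0.10 in capillary nuclei and 1.08 in all other barcodes, and Lpl, lipoprotein lipase, at 960 and 460 CPM, stood at 1.06 (0.54 to 1.61). Both are strongly expressed by blood endothelium or cardiomyocytes, and the share of free RNA in their UMIs was not tested separately. Stab1, on the other side, was at 704 CPM (102 UMIs) and 1381 CPM (117 UMIs), at -0.97 (-1.37 to -0.58), just short of 2-fold.

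Inflammatory genes were mostly beyond reach at this depth. Of 20 inflammasome and interleukin-1 genes, Txnip alone had 20 UMIs, at 649 and 602 CPM and 0.11 (-0.40 to 0.63). Il1b and Il1a had 0 UMIs in both libraries, Casp1 1 and 0, and Pycard, the adaptor of the inflammasome, 5 and 1, so differences in them were not detectable. Of 9 inflammatory-response genes with enough UMIs 0 were higher and 1 lower, at a median of -0.23: Cd74, the invariant chain of class II antigen presentation, had 8 UMIs (55.2 CPM) and 17 UMIs (201 CPM), at -1.86 (-3.28 to -0.57).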

How the data were processed

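UMI counts per gene and barcode were taken as the authors deposited them. Per the submitters' processing notes, Cell Ranger 6.1.1 and the mouse build mm10 were used, and per the labels' protocols the libraries were made from nuclei with a 10x Genomics 3′ kit. Features sharing a symbol were summed. The members and gene lists were chosen with earlier results of these data known. Raw counts were summed per class and library and divided by non-mitochondrial UMIs, counts under 3 were set to 3 in ratios, and a call is a ratio of at least 2 with at least 3 UMIs on the higher side. Intervals are exact: Clopper-Pearson for shares, Poisson for levels and conditional binomial for ratios, with a square-and-add interval for a difference of shares, all at 95%. Scrublet's automatic threshold called 2424 barcodes in CF-KI and 0 in control, so, after this was seen, the highest scores up to the share expected from loading (12.0% and 8.96%) were called in each. Clustering used scanpy 1.11.5 (2000 variable genes, 30 principal components, 15 neighbours, Leiden resolution 0.8). Thinning drew 500 non-mitochondrial UMIs per barcode. Free RNA was estimated by taking every cardiomyocyte-marker UMI in a class as free and subtracting the library's profile at that rate. The rates in CF-KI and control were 64.6% and 51.9% for lymphatic and 54.3% and 57.2% for capillary nuclei. Named genes were Nlrp3 and Tcf21, the rule genes, the further lymphatic markers, the 3 highest and 3 lowest of each other list, the 15 highest and 10 lowest over capillary nuclei and, with at least 50 UMIs, the 10 highest and 10 lowest CF-KI over control and the 8 highest and 8 lowest among genes higher in lymphatic nuclei. Members of short counts named beside them, such as Nrp2 or Tie1 in a list, were named after their values were seen. Coordinates are from the GENCODE annotation of GRCm38, the same assembly as mm10, which matched 32158 of 32285 features. The scripts were tested on simulated data. As alternatives, libraries were also scaled by TMM (edgeR 4.0.16) and by median of ratios (DESeq2 1.42.0).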

Additional observations from a re-analysis of the deposited data

How the results depend on the processing

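Of 67 alternative values for 5 results, 50 stayed within the bounds set for each result, 16 moved and 1 reversed. For the share difference of 0.253 points the bounds were its own counting interval, which is wide. Smaller differences thus counted as within bounds, such as 0.0734 points after thinning and 0.0608 points with at least 4 markers (62 and 47 nuclei). A mitochondrial limit of 5% reversed the difference in the share of lymphatic nuclei, from 0.253 to -0.378 points, and gave 17 genes higher than in capillary nuclei, 30 genes higher in CF-KI lymphatic nuclei and a median of -1.49 for the further lymphatic markers, beside -0.658 over all genes. The endothelial denominator moved the share difference to 1.75 points. Subtracting the estimate of free RNA gave 824 genes higher than in capillary nuclei against 323, 324 genes higher in CF-KI against 224 and 382 lower against 178, and a marker median of -0.047 against -0.449, beside -0.131 over all genes. Requiring at least 4 markers gave 98 genes lower in CF-KI. A minimum of 50 UMIs, which tests fewer genes, gave 104 higher than in capillary nuclei, 68 higher and 35 lower in CF-KI and a marker median of -0.637. A minimum of 10 UMIs, which tests more, gave 593, 439, 503 and -0.773. Where the construction does not show it, the cause was not tested. Scaling by TMM or median of ratios moved the CF-KI over control ratios by 0.0632 and 0.0675 (log2). Leaving out the haemoglobin-rich barcode or the cardiomyocyte-rich nuclei was chosen after seeing the data and kept every one of the 5 results within its bounds. No paired analysis was possible because each group has 1 library.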
